A study of Homo sapiens with 8 samples.

Results

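The genes described here are 9 core components of the Sonic hedgehog pathway: SHH, PTCH1, SMO, GLI1, GLI2, GLI3, HHIP, GAS1 and BOC. They were chosen by name, as the rows of the deposited transcript abundance table that carry those symbols, and each of the 9 has 1 row among the 35940 gene symbols of the table. The libraries come from ESI017, a wild type human pluripotent stem cell line, grown in N2B27, a serum-free medium used for neural differentiation. All groups also received the inhibitors SB (10 µM) and LDN (100 nM), and WNT3A at 300 ng/mL was added at 34 h of differentiation. Poly(A) RNA was sequenced at 34 h, the last point before WNT3A, and at 42, 50 and 72 h, which are 8, 16 and 38 h after it. Each of the 4 time points has 2 libraries, replicate 1 and replicate 2, which the labels also name as batches and the series' design text describes as biologically independent. All libraries are from 1 cell line. Cells kept without WNT3A were not analysed here, and time in culture and exposure to WNT3A cannot be told apart. No hedgehog agonist or antagonist is named in the labels.

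In the hedgehog pathway a secreted ligand such as SHH binds the receptor PTCH1, helped by the co-receptors BOC, GAS1 and CDON, and binding lifts the block that PTCH1 holds over the membrane protein SMO. Active SMO acts at the primary cilium and turns the GLI transcription factors from repressor into activator forms. GLI1 is an activator, GLI2 gives mostly activator and GLI3 mostly repressor, and PTCH1, HHIP and GLI1 are themselves well known targets of GLI activators. In the neural tube the ligand comes from the notochord and floor plate and sets ventral cell fates, while WNT ligands from the roof plate act dorsally.

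Promoter sequence is shown for PTCH1, BOC and HHIP, whose early rise, late rise and fall are described below. The windows come from RefSeq on GRCh38.p14, whose table held 7 of the 9 members, without an entry for GLI1 or GLI3. For each, up to 250 bases before an annotated start are printed 5′ to 3′ on the strand of the gene, cut off where an exon of the gene in GENCODE 29 begins. Capitals mark the GLI consensus GACCACCCA, which lies here on the opposite strand and so reads TGGGTGGTC.
PTCH1, chr9:95509267-95509516, minus strand: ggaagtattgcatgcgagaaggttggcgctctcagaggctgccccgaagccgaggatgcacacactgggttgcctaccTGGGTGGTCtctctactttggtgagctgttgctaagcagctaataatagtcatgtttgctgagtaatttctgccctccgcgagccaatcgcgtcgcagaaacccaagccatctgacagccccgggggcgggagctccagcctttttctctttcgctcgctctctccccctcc
BOC, chr3:113211307-113211481, plus strand: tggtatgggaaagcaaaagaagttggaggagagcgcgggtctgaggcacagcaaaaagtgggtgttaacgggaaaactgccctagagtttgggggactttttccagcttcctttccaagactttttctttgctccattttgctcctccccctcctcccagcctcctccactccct
HHIP, chr4:144645906-144646020, plus strand: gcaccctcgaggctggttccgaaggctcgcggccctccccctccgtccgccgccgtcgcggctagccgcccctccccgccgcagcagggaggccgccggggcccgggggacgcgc
The PTCH1 window precedes 1 of 5 RefSeq starts and lies inside the gene, as that of BOC does, in no PTCH1 exon of GENCODE 29, and its match is 172 bases before that start. Searched on both strands over 35116 windows of 250 bases before to 50 bases after a start, the 9-letter consensus was in 0.236% of windows, and among the members' 13 windows it was in this PTCH1 window alone. Its 7-letter core CCACCCA, which the consensus contains, was in 9.19% of all windows and was also found at GLI2. Of a pair of 7-letter forms of the TCF/LEF motif, the element bound by the nuclear factors of WNT signalling, CTTTGAT was in 2.62% of all windows and in none of the members', and CTTTGAA was in 4.43% and at GLI2 alone among the members.

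Abundance is given in TPM, transcript abundance corrected for length and scaled to a sum of 1000000 in every library, so levels may be compared between genes and the read depth behind a value is unknown. The libraries had 13860 to 14004 genes at 1 TPM or more, and 8.70% to 11.2% of their TPM was mitochondrial, a share whose ranges overlapped between the time points. Changes were tested with limma on log2(TPM + 1) over the 14908 genes that reached 1 TPM in at least 2 of the 8 libraries, with 2-sided p-values adjusted by Benjamini-Hochberg over all of them and called under 0.05. On this scale the change of low genes is understated. SHH did not enter the test, so 8 of the 9 members did. Pluripotency markers (POU5F1, NANOG, TDGF1 and DPPA4; 4 of 4 at 1 TPM or more) summed to 2283 to 2332 TPM at 34 h and to 524 to 559 TPM at 72 h. Neural progenitor markers (SOX1, SOX2, PAX6 and NES; 4 of 4) summed to 346 to 363 TPM at 34 h and to 604 to 644 TPM at 72 h. At 42 h the pluripotency sum was 1639 to 1736 TPM and the neural sum 302 to 344 TPM. At 50 h these sums were 1228 to 1349 TPM and 399 to 453 TPM. In such bulk samples fewer cells of a type and less RNA per cell cannot be told apart. The part of either marker list in the changes below was not tested.

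At 42 h, 1 of the 8 tested members changed from 34 h, a rise of PTCH1, where 1.78% of all tested genes rose and 2.58% changed in either direction. At 50 h the count against 34 h was again 1, a rise of PTCH1, where 3.52% of tested genes rose and 6.26% changed. At 72 h PTCH1, SMO, GLI3, GAS1 and BOC had risen from 34 h and HHIP had fallen, which is 6 of 8 members where 24.0% of tested genes changed, 12.7% upward and 11.3% downward. HHIP entered the test only through its 34 h libraries, so its fall was fixed by the filter and adds nothing to that count; the other 5 are the rises. Between 50 and 72 h only BOC changed, a rise, where 2.92% of tested genes rose and 7.33% changed. Between 42 and 50 h limma called 0 of the 8 members, and 0 had an unadjusted p under 0.05, where 0.0939% of all tested genes were called. On the log2(TPM + 1) scale the tested members' median difference from 34 h was 0.09 in the 42 h comparison, 0.21 in the 50 h one and 0.59 in the 72 h one, beside 0.01, 0.04 and 0.06 over all tested genes. The count of 6 was 4 without replicate 1 of 34 h, 3 without replicate 2 of 34 h, 1 without replicate 1 of 72 h and 3 without replicate 2 of 72 h. With either 34 h library left out, HHIP had no test and 7 members were tested. The 3 comparisons with 34 h share its 2 libraries.

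**Figure D1:**
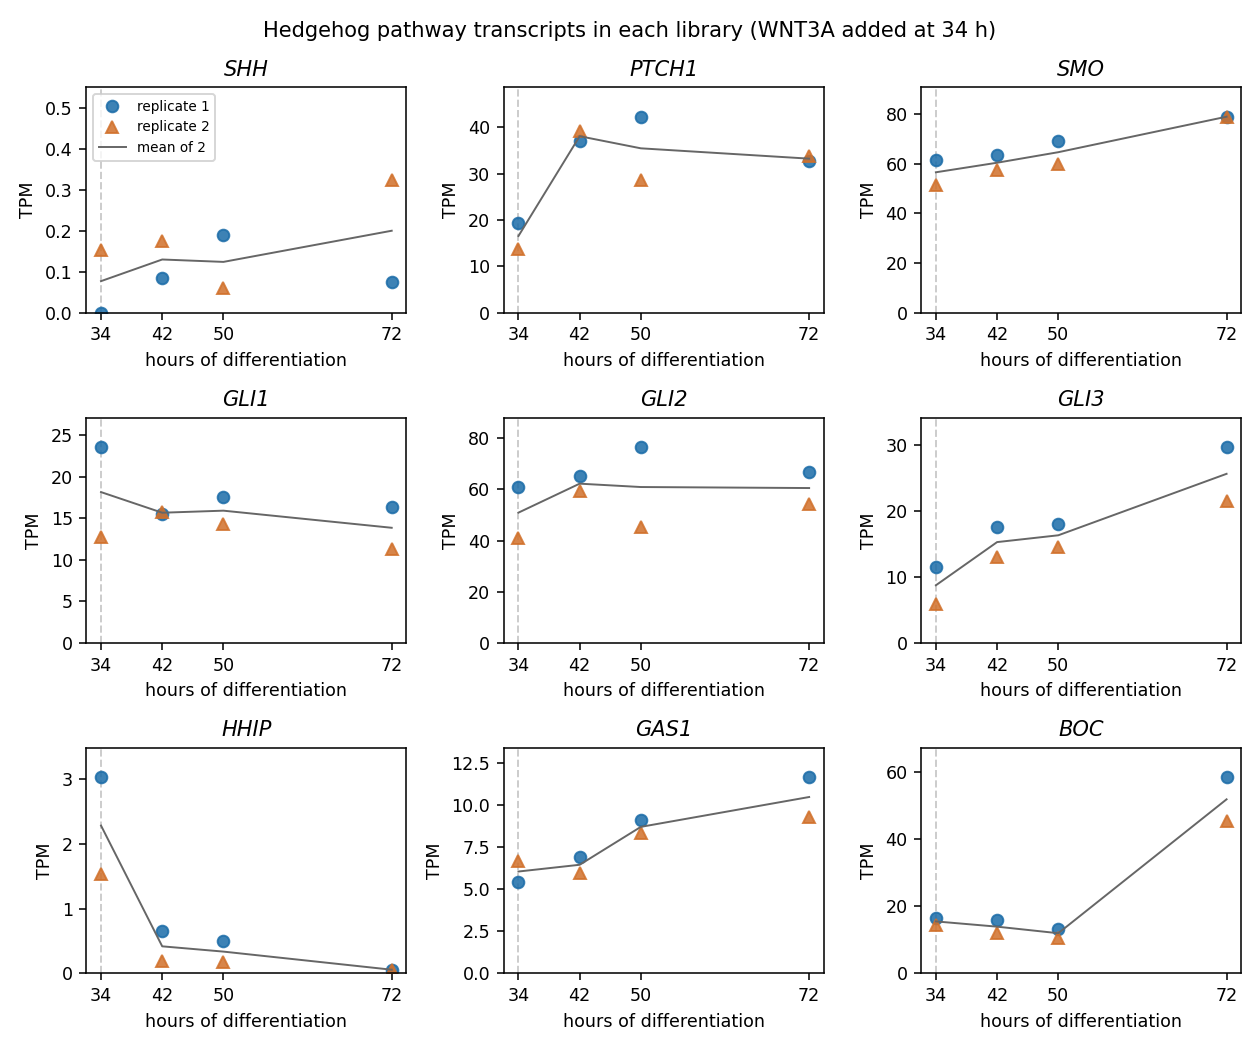
Transcript abundance (TPM, vertical axis) of the 9 members against hours of differentiation, with 1 panel per gene. Points are single libraries of replicate 1 and replicate 2, the line joins the means of the 2, and the dashed line marks 34 h, when WNT3A was added; PTCH1 steps up by 42 h, BOC between 50 and 72 h, HHIP is highest at 34 h, and SHH stays under 0.4 TPM.

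The ligand gene SHH (ENSG00000164690, chromosome 7, 155799986 to 155812273, minus strand, as all positions on GRCh38 from GENCODE 29) was close to 0 throughout. Its abundance was 0 and 0.153 TPM in replicates 1 and 2 (34 h), 0.0854 and 0.174 (42 h), 0.189 and 0.0587 (50 h), and 0.0752 and 0.324 (72 h). The time points overlap in every pairing, and no test was made. The other hedgehog ligand genes were also low, with IHH at no more than 0.387 TPM and DHH at no more than 0.0758 TPM in any library, and neither entered the test. Markers of the node and notochord, a tissue that secretes SHH in the embryo (TBXT, NOTO, CHRD, FOXA2 and FOXJ1; 4 of 5 at 1 TPM or more), summed to 30.0 to 30.2 TPM at 34 h and to 14.6 to 16.9 TPM at 72 h, and its members went different ways. FOXA2 and FOXJ1 fell by 72 h (-2.99 and -2.67, limma adjusted p = 1.9e-05 and 4.0e-05), while CHRD rose (2.52, limma adjusted p = 0.000221), to 13.4 and 10.2 TPM. FOXA2 was under 1 TPM at 72 h, so the filter favoured its fall. TBXT rose at 42 h (2.40, limma adjusted p = 0.00149), to 11.4 and 7.92 TPM, and NOTO stayed under 1 TPM.

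PTCH1 (ENSG00000185920, chromosome 9, 95442980 to 95517057, minus strand), the receptor that holds SMO inactive and a direct GLI target, more than doubled by 42 h and stayed there. It measured 19.3 and 13.8 TPM in replicates 1 and 2 (34 h), 37.0 and 39.1 (42 h), 42.3 and 28.6 (50 h), and 32.7 and 33.8 (72 h). Every later library was above both 34 h libraries, and the 50 h pair enclosed the libraries of 42 and 72 h. The rise from 34 to 42 h was 1.17 on the log2(TPM + 1) scale (SE 0.20, 95% interval 0.70 to 1.64, limma adjusted p = 0.0230), with 0.91 within replicate 1 and 1.44 within replicate 2. Against 34 h the rise was 1.05 at 50 h (limma adjusted p = 0.0217) and 0.98 at 72 h (limma adjusted p = 0.0106), and from 50 to 72 h the difference was -0.07, with an interval of -0.54 to 0.40. The call at 42 h was lost without replicate 2 of 34 h (adjusted p = 0.159), replicate 1 of 42 h (0.106) or replicate 2 of 42 h (0.141), with no filter on low values (0.0788), with both time points fitted alone (0.0707) or with a variance without trend (0.0534), of a range of 0.0120 to 0.159 over 16 alternatives. The limma adjusted p ranged from 0.0130 to 0.135 at 50 h, where the call was lost without replicate 2 of 34 h (0.135) or replicate 1 of 50 h (0.0958), without the filter (0.0644) and with the time points alone (0.120); at 72 h it ranged from 0.00518 to 0.0696, and the call was lost without replicate 2 of 34 h (0.0696), replicate 1 of 72 h (0.0526) or replicate 2 of 72 h (0.0585).

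HHIP (ENSG00000164161, chromosome 4, 144646021 to 144745271, plus strand) encodes a membrane protein that binds hedgehog ligands and limits their action, and like PTCH1 it is a known GLI target. Its values were highest before WNT3A, and went from 3.02 and 1.54 TPM (34 h) to 0.649 and 0.183 TPM (42 h), 0.4975 and 0.172 (50 h), and 0.0551 and 0.0560 (72 h). Both 34 h libraries were above all 6 later ones. The fall from 34 to 72 h was -1.60 on the log2(TPM + 1) scale (SE 0.33, interval -2.36 to -0.83, limma adjusted p = 0.0106), and HHIP was lower at 72 h within both replicates. At 42 h the difference was -1.19 (limma adjusted p = 0.136) and at 50 h -1.27 (0.0650, or 0.0440 with a variance without trend). HHIP passed the filter only through its 34 h libraries, so a lower value later was fixed by that filter, and it had no test when either was left out. The 72 h call was lost without replicate 1 (adjusted p = 0.0569) or replicate 2 (0.0547) of 72 h, of a range of 0.00771 to 0.0569 over 14 alternatives, and with a pseudocount of 0.1 the change was -3.86. On the opposite strand HHIP overlaps the antisense gene HHIP-AS1 and the protein-coding AC098588.1, which was at 0.0665 to 0.505 TPM, near the later levels of HHIP. PTCH1, SMO and GLI2 also overlap annotated genes on the opposite strand, and whether the quantification used strand is not given in the sources used here.

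BOC (ENSG00000144857, chromosome 3, 113211003 to 113287459, plus strand), a co-receptor that binds SHH together with PTCH1, rose late, between 50 and 72 h. It measured 16.5 and 14.5 TPM (34 h), 15.9 and 12.0 (42 h), and 13.3 and 10.6 (50 h), and then 58.4 and 45.4 TPM (72 h). The 42 h libraries overlapped those of 34 and 50 h, and both 72 h libraries stood above all 6 earlier ones. From 50 to 72 h it rose by 2.03 on the log2(TPM + 1) scale, 4.07-fold on TPM + 1 (SE 0.19, interval 1.59 to 2.46, limma adjusted p = 0.000845), with 2.05 within replicate 1 and 2.00 within replicate 2. Against 34 h the rise at 72 h was 1.67 (limma adjusted p = 0.000621), and both calls held under all 16 alternatives, with adjusted p of 0.000295 to 0.0199 for the first and 0.000125 to 0.00732 for the second. At 42 and 50 h the differences from 34 h were -0.15 (adjusted p = 0.828) and -0.35 (0.354). CFAP44 overlaps BOC on the opposite strand and was at 0.612 to 2.42 TPM.

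GAS1 (ENSG00000180447, chromosome 9, 86944363 to 86947189, minus strand), a co-receptor anchored to the membrane by a lipid, was low and rose by less. Its levels were 5.44 and 6.68 TPM (34 h), 6.95 and 5.98 (42 h), 9.10 and 8.35 (50 h), and 11.7 and 9.34 (72 h). The 34 and 42 h libraries overlapped, and the 50 h and then the 72 h libraries were all above them. The rise from 34 to 72 h was 0.70 on the log2(TPM + 1) scale (SE 0.18, interval 0.30 to 1.11, limma adjusted p = 0.0235), with 0.98 within replicate 1 and 0.43 within replicate 2, and the difference at 50 h was 0.47 (adjusted p = 0.182). The 72 h call was lost without replicate 1 of 34 h (adjusted p = 0.120) or replicate 1 of 72 h (0.143), with no filter (0.0533) and with the time points alone (0.0539), of a range of 0.0233 to 0.143.

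SMO (ENSG00000128602, chromosome 7, 129188872 to 129213545, plus strand), the receptor-like protein that carries the signal inward, was abundant at every time. It measured 61.4 and 51.6 TPM (34 h), 63.3 and 57.4 (42 h), 69.2 and 60.0 (50 h), and 78.9 in both libraries of 72 h. The first 3 time points overlapped, and both 72 h libraries were above all others. The rise from 34 to 72 h was 0.48 on the log2(TPM + 1) scale (SE 0.12, interval 0.20 to 0.76, limma adjusted p = 0.0244), 0.36 within replicate 1 and 0.60 within replicate 2. Differences from 34 h were 0.10 at 42 h (adjusted p = 0.834) and 0.19 at 50 h (0.436). The 72 h call was lost without replicate 2 of 34 h (adjusted p = 0.144), replicate 1 (0.105) or replicate 2 (0.103) of 72 h, and with a variance without trend (0.0527), of a range of 0.0143 to 0.144.

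**Figure D2:**
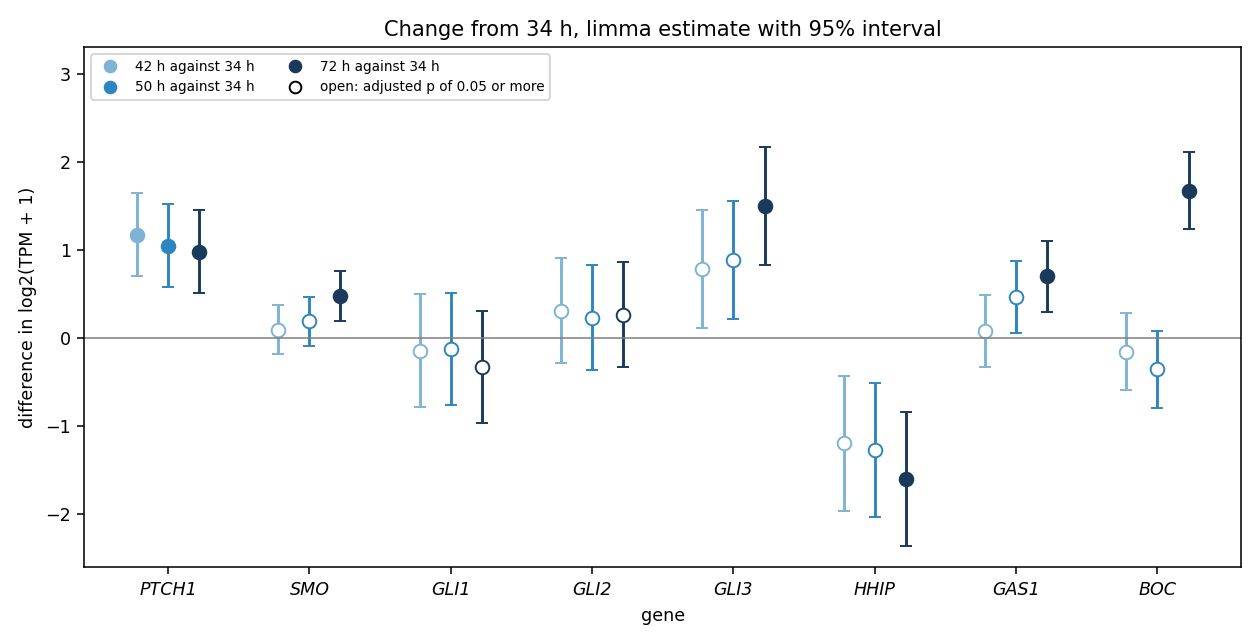
Difference in log2(TPM + 1) from 34 h at 42, 50 and 72 h for the 8 tested members, with 95% intervals from limma. The intervals, which are not adjusted for the number of genes, lie above 0 at all 3 times for PTCH1 and GLI3, at 50 and 72 h for GAS1 and at 72 h for BOC and SMO, lie below 0 at all 3 times for HHIP, and span 0 throughout for GLI1 and GLI2.

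GLI1 (ENSG00000111087, chromosome 12, 57460135 to 57472262, plus strand), the activator and the GLI target most often read as a gauge of pathway activity, was not called in any comparison. It measured 23.5 and 12.7 TPM (34 h), 15.5 and 15.8 (42 h), 17.6 and 14.2 (50 h), and 16.4 and 11.3 (72 h). The 34 h pair enclosed the libraries of 42 and 50 h and overlapped those of 72 h. Differences from 34 h were -0.14 at 42 h (interval -0.78 to 0.50, limma adjusted p = 0.908), -0.13 at 50 h (0.849) and -0.33 at 72 h (interval -0.96 to 0.31, limma adjusted p = 0.431), and without replicate 1 of 34 h they were 0.28, 0.29 and 0.09. ARHGAP9, on the opposite strand, overlaps GLI1 and was at 0.600 to 4.69 TPM. The ratio of PTCH1 to GLI1 TPM was 0.950 ± 0.187 before WNT3A (SD, n = 2), 2.43 ± 0.0754 at 42 h, 2.21 ± 0.282 in the 50 h pair and 2.49 ± 0.699 in the 72 h pair, given here as a description with no test.

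GLI2 (ENSG00000074047, chromosome 2, 120735623 to 120992653, plus strand), the main activator in most tissues, was the most abundant of the 3 GLI genes in every library. It measured 60.9 and 40.9 TPM (34 h), 65.3 and 59.2 (42 h), 76.5 and 45.3 (50 h), and 66.6 and 54.4 (72 h). All time points overlapped. Differences from 34 h were 0.31 at 42 h (interval -0.29 to 0.91, limma adjusted p = 0.712), 0.23 at 50 h (0.670) and 0.26 at 72 h (interval -0.33 to 0.86, limma adjusted p = 0.500). Without replicate 2 of 34 h the differences at 50 and 72 h were -0.046 and -0.015.

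GLI3 (ENSG00000106571, chromosome 7, 41960950 to 42237870, minus strand), the main source of GLI repressor, was the GLI gene that rose. It measured 11.5 and 5.95 TPM (34 h), 17.5 and 13.0 (42 h), 18.0 and 14.6 (50 h), and 29.7 and 21.6 (72 h). Every later library was above both 34 h libraries, the 42 and 50 h libraries overlapped, and both 72 h libraries were the highest. The rise from 34 to 72 h was 1.50 on the log2(TPM + 1) scale (SE 0.29, interval 0.83 to 2.17, limma adjusted p = 0.00799), with 1.29 within replicate 1 and 1.70 within replicate 2. The call was lost without replicate 1 of 72 h (limma adjusted p = 0.0591, of a range of 0.000848 to 0.0591). The difference was 0.79 at 42 h (adjusted p = 0.271) and 0.89 at 50 h (0.130), and these were 0.37 and 0.46 without replicate 2 of 34 h and 1.21 and 1.31 without replicate 1 of 34 h. With the replicate number as a block, the pairing that the batch labels give, GLI3 at 50 h passed the test (limma adjusted p = 0.0228), as it did without replicate 1 of 34 h (0.0491), of a range of 0.0228 to 0.487.

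Within the summed TPM of the 3 GLI genes, the GLI3 share was 12.0% and 9.98% (34 h), 17.8% and 14.8% (42 h), 16.1% and 19.7% (50 h), and 26.3% and 24.7% (72 h). The GLI1 share was 24.5% and 21.3% (34 h) and 14.5% and 13.0% (72 h), so these shares did not overlap between the ends of the course in either gene. GLI2 held 59.1% to 68.7% in all 8 libraries. The ratio of GLI3 to GLI1 TPM in replicates 1 and 2 was 0.489 and 0.468 (34 h), 1.13 and 0.828 (42 h), 1.03 and 1.03 (50 h), and 1.81 and 1.91 (72 h). GLI3 was therefore below GLI1 in both libraries before WNT3A and above it in both at 72 h. In single TPM values replicate 1 was higher than replicate 2 for GLI2, GLI3, SMO and BOC at all 4 times, and for 7 of the 9 members at 34 h, 6 at 42 h, 9 at 50 h and 6 at 72 h. Shares of transcripts do not measure the processed protein forms.

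**Figure D3:**
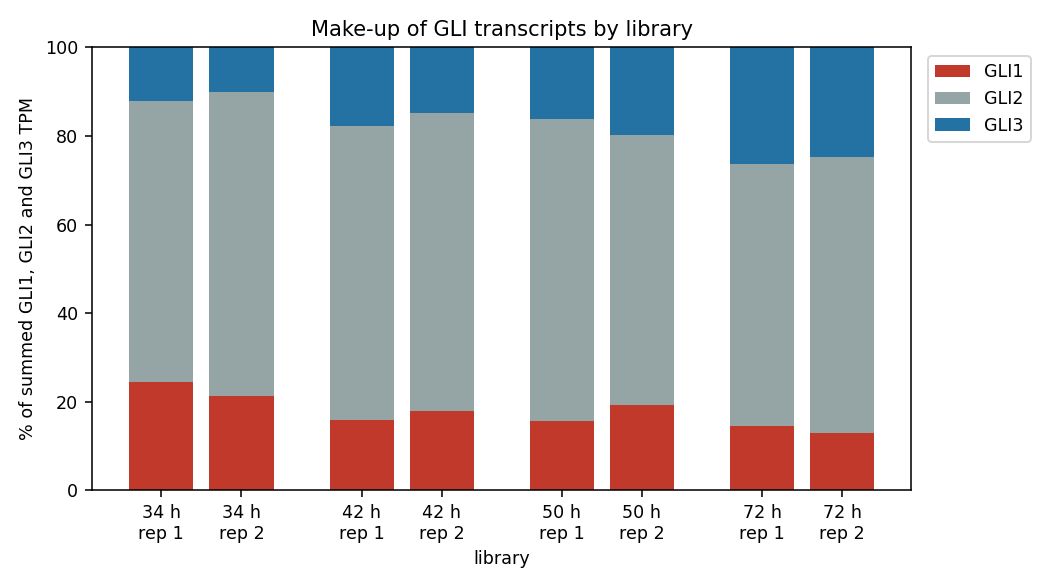
Share of the summed GLI1, GLI2 and GLI3 abundance (percent of their TPM, vertical axis) held by each gene, as stacked bars for each of the 8 libraries in order of time. GLI3 goes from 9.98% to 12.0% at 34 h to 24.7% to 26.3% at 72 h, GLI1 from 21.3% to 24.5% down to 13.0% to 14.5%, and GLI2 holds the largest share in every library.

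By level, SMO (56.5 ± 6.97 TPM, SD, n = 2) and GLI2 (50.9 ± 14.1) were the highest members at 34 h, and their libraries overlapped. GLI1 (18.1 ± 7.66), PTCH1 (16.5 ± 3.88) and BOC (15.5 ± 1.37) followed and did not differ beyond their spread, and then came GLI3 (8.73 ± 3.94) and GAS1 (6.06 ± 0.876), which overlapped, HHIP (2.28 ± 1.05) and SHH (0.0766 ± 0.108). At 42 h GLI2 and SMO overlapped at the top, and PTCH1 (38.0 ± 1.55) stood apart from GLI1 (15.7 ± 0.152), GLI3 (15.3 ± 3.15) and BOC (13.9 ± 2.73), and these last 3 overlapped. At 50 h the order was SMO, GLI2, PTCH1, GLI3, GLI1, BOC, GAS1, HHIP and SHH, with overlap between SMO and GLI2, between GLI3 and GLI1 and between HHIP and SHH. At 72 h it was SMO (78.9 ± 0.0265), GLI2 (60.5 ± 8.67), BOC (51.9 ± 9.24), PTCH1 (33.2 ± 0.782), GLI3 (25.6 ± 5.74), GLI1 (13.8 ± 3.57), GAS1 (10.5 ± 1.65), SHH (0.200 ± 0.176) and HHIP (0.0556 ± 0.000605). BOC had moved from the fifth to the third place, its 72 h libraries overlapped those of GLI2, and GLI1 and GAS1 overlapped as well.

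Of 58 further pathway and target genes, 45 entered the test. At 72 h against 34 h, 16 of the 45 rose and 2 fell, where 24.0% of all tested genes changed, and their median difference was 0.39 beside 0.06 over all tested genes. At 42 h 6 rose and 0 fell, where 2.58% of all tested genes changed, and 2 of the 6 (NKX6-1 and MSX1) were under 1 TPM at 34 h. At 50 h 6 rose and 1 fell, where 6.26% changed, and 3 of the 7 (NKX6-1, MSX1 and MSX2) were under 1 TPM at 34 h. Between 50 and 72 h 5 rose and 1 fell, where 7.33% changed, and 3 of the 6 (FOXA2, PAX3 and PAX6) were under 1 TPM at one end. Of the 6 calls at 42 h, 4 were kept without replicate 1 of 34 h, 3 without replicate 2 of 34 h, 3 without replicate 1 of 42 h and 2 without replicate 2 of 42 h. Of the 7 at 50 h, 4 were kept without replicate 1 and 3 without replicate 2 of 34 h, and 4 without replicate 1 and 5 without replicate 2 of 50 h, with DISP1, FOXA2, MSX2 or IRX3 lost. Of the 6 between 50 and 72 h, 4 were kept without replicate 2 of 50 h. Without a library of 72 h, 4 of those 6 had a value, and 3 (without replicate 1) or 2 (without replicate 2) were kept, with DBX1 or STK36 lost. Of the 18 called at 72 h, 8 were under 1 TPM at one end of the comparison (HHAT, FOXA2, NKX6-1, DBX1, PAX3, MSX1, MSX2 and PAX6), so for those the filter favoured a difference. HHAT, PAX3 and PAX6 reached 1 TPM only at 72 h, so the filter fixed their rises. Leaving out 1 library of 34 or 72 h ended the 72 h call of HHAT, STK36, IFT88 and SNAI1 (without replicate 1 of 34 h), of HHAT, CDON, GPR161, STK36 and SNAI1 (replicate 2 of 34 h), of CDON, GPR161, IFT88 and SNAI1 (replicate 1 of 72 h) and of CDON, GPR161 and STK36 (replicate 2 of 72 h), with limma adjusted p up to 0.0778 for HHAT, 0.0973 for STK36, 0.0675 for IFT88, 0.113 for SNAI1, 0.167 for CDON and 0.186 for GPR161.

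**Figure D4:**
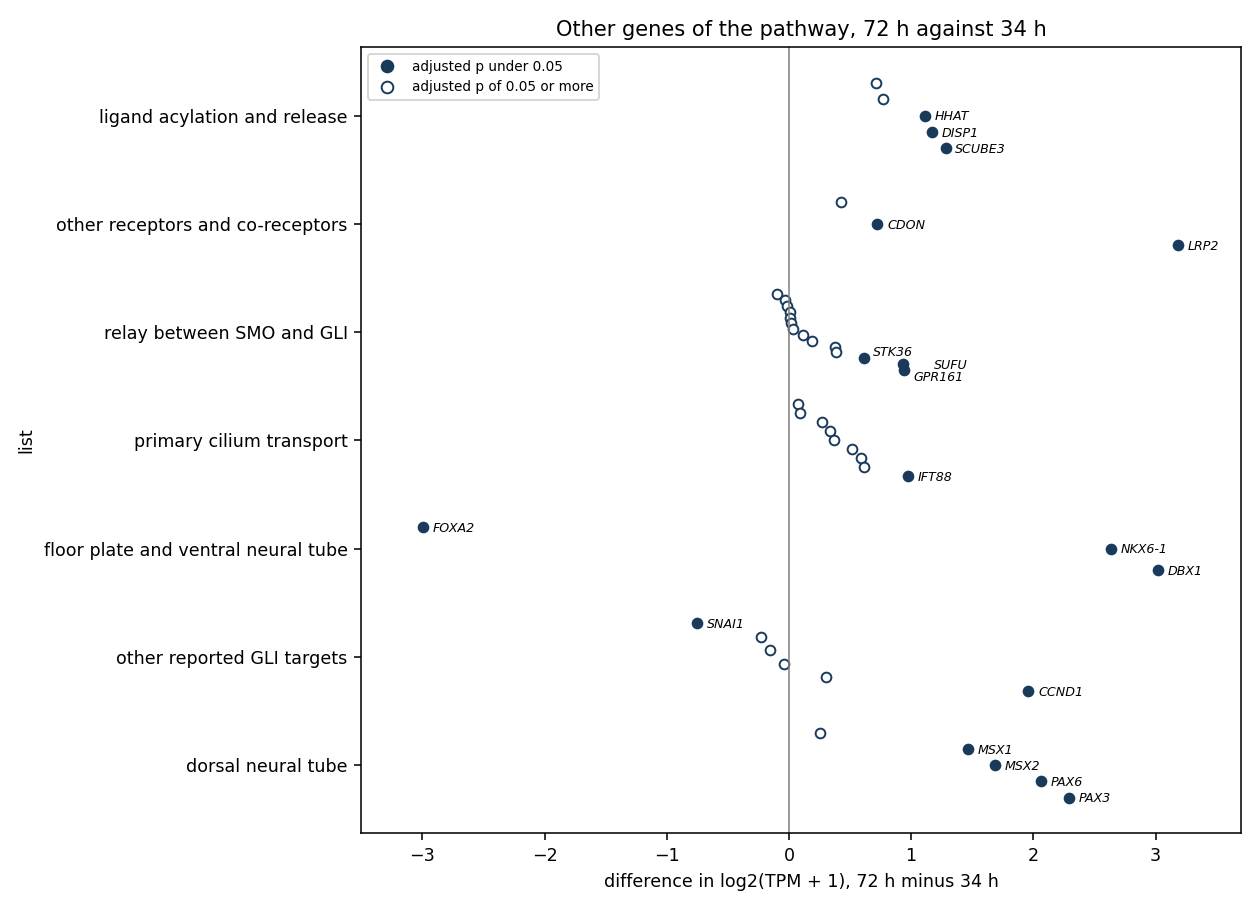
Difference in log2(TPM + 1) between 72 and 34 h (horizontal axis) for the 45 tested pathway and target genes, grouped by list. Filled points passed limma's adjusted p under 0.05 and are named; LRP2 at 3.19 and DBX1 at 3.02 are the highest and FOXA2 at -2.99 the lowest, and the relay and cilium genes lie near 0 or above it.

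Among genes for making and releasing the ligand, 3 of 5 rose by 72 h, where 12.7% of all tested genes rose. DISP1, which releases lipid-bearing ligand from the cell that makes it, went from 2.88 and 2.76 TPM (34 h) to 5.92 and 7.63 (42 h) and 6.94 and 8.27 (72 h), rises of 1.02 (limma adjusted p = 0.0252) and 1.17 (0.00280). The 42 h call of DISP1 was lost in 6 of 16 alternatives, with adjusted p of 0.0202 to 0.168, and its 72 h call in none. Without replicate 1 or replicate 2 of 34 h its adjusted p at 42 h was 0.121 and 0.156, and without those of 42 h it was 0.0573 and 0.168. SCUBE3, a secreted protein of a family that helps release the ligand, rose by 1.28 (limma adjusted p = 0.00244), and HHAT, the enzyme that attaches palmitate to the ligand, rose by 1.11 (limma adjusted p = 0.0167), from under 0.34 to over 1.8 TPM. HHAT reached 1 TPM only at 72 h, so its rise was fixed by the filter.

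Of the other receptors and co-receptors, 2 of 3 rose by 72 h, where 12.7% of all tested genes rose. LRP2, a large endocytic receptor that takes up SHH in the forebrain, was high at 72 h alone, as BOC was. It was at 3.10 and 2.46 TPM (34 h), 2.81 and 3.13 (42 h) and 3.46 and 2.71 (50 h), then 38.7 and 28.6 (72 h). From 50 to 72 h LRP2 rose by 3.07 (SE 0.21, limma adjusted p = 0.000184). CDON, a co-receptor related to BOC, rose by 0.72 from 34 to 72 h (limma adjusted p = 0.0327), a call lost in 6 of 16 alternatives (0.0107 to 0.167).

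Of 14 genes of the relay between SMO and the GLI proteins, 3 rose by 72 h and none fell, where 12.7% of all tested genes rose and 24.0% changed. SUFU, which holds GLI proteins in the cytoplasm and restrains the pathway, rose from 10.7 and 9.79 TPM (34 h) to 19.3 and 21.5 (72 h), by 0.93 (limma adjusted p = 0.00189, with 0.00185 to 0.0200 over 16 alternatives). GPR161, a ciliary receptor that also restrains the pathway, rose by 0.94 (limma adjusted p = 0.0349, lost in 5 of 16 alternatives, 0.0249 to 0.186). STK36, a kinase of the fused family, rose by 0.61 (limma adjusted p = 0.0149). Its course was not steady, with 26.5 and 25.0 TPM (34 h), 40.3 and 42.7 (42 h), 26.3 and 24.1 (50 h), and 35.2 and 45.1 (72 h). It also rose at 42 h (0.67, limma adjusted p = 0.0471), a call lost in 13 of 16 alternatives, among them the block and each left-out library of 34, 42 or 50 h (0.0404 to 0.261 over all). Of 9 genes of transport in the primary cilium, where SMO acts, only IFT88 rose by 72 h (0.97, limma adjusted p = 0.00954), where 12.7% of all tested genes rose, and the median difference of the 9 was 0.37 beside 0.06 over all tested genes.

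Among 9 other genes reported as GLI targets, 6 were tested. CCND1, the gene of cyclin D1, which drives entry into S phase and is also a known WNT target, was higher in all 6 later libraries: 88.8 and 65.5 TPM (34 h), 301 and 246 (42 h), 341 and 257 (50 h), and 297 and 302 (72 h). Its rise was 1.82 at 42 h (limma adjusted p = 0.00143) and 1.96 at 72 h (0.000191). SNAI1, a repressor of epithelial genes, fell by 0.75 by 72 h (limma adjusted p = 0.0188, lost in 3 of 16 alternatives, 0.0135 to 0.113), and the other 4 were not called at that time. That is 1 rise and 1 fall of 6, where 12.7% of all tested genes rose and 11.3% fell, and the median of the 6 was -0.095 beside 0.06 over all tested genes.

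Of 10 floor plate and ventral neural tube genes, 3 were tested, and NKX2-1, NKX2-2, NKX6-2, OLIG2, FOXA1 and DBX2 were among those that did not reach the filter. NKX6-1, which marks ventral progenitors and depends on hedgehog signalling in the embryo, was at 0 and 0.130 TPM (34 h), 8.41 and 5.82 (42 h), 4.19 and 4.16 (50 h) and 5.08 and 6.15 (72 h). Its rise at 42 h was 2.91 (SE 0.22, limma adjusted p = 0.000480), and since it passed the filter only through the later libraries, a rise from 34 h was fixed by the filter. DBX1, a gene of intermediate neural tube progenitors, rose by 3.02 by 72 h (limma adjusted p = 0.000463), to 8.08 and 7.68 TPM. FOXA2, a floor plate and notochord factor, fell by 2.99. DBX1 reached 1 TPM only after 34 h and FOXA2 was under it at 72 h, so the filter favoured both differences. Among 6 dorsal genes, 5 were tested and 4 rose by 72 h, where 12.7% of all tested genes rose, with PAX3 at 4.81 and 4.24, PAX6 at 4.01 and 3.59, MSX1 at 1.897 and 1.616 and MSX2 at 2.47 and 3.82 TPM. These 4 were under 1 TPM at 34 h and passed the filter only through later libraries, so the filter favoured each of the 4 rises. PAX3 and PAX6 reached 1 TPM only at 72 h, so their rises were fixed by the filter. PAX6 is not restricted to dorsal cells and also stands in the neural progenitor list above. IRX3, the fifth, rose at 42 h (1.29, limma adjusted p = 0.00828, lost in 4 of 16 alternatives, among them without replicate 2 of 34 h and without either library of 42 h, 0.00765 to 0.0730) and was at 4.07 and 3.52 TPM (72 h), with no call against 34 h.

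For the members whose means spanned at least 1 on the log2(TPM + 1) scale, the genes with the nearest course over the 8 libraries were sought among 11540 tested genes that reached a mean of 5 TPM at some time point. Likeness is the root mean square difference after each gene's own mean is removed. Nearest to PTCH1 were TNRC6C (0.140), ZNF385C (0.170) and CHST11 (0.170), and nearest to GLI3 were PCDHGA11 (0.193), NOTCH3 (0.203) and PIK3C2B (0.203). Nearest to HHIP were FGD5 (0.166), TAP2 (0.172) and CLDN5 (0.176), and nearest to BOC were FER1L4 (0.199), TMEM255A (0.252) and H1F0 (0.274). HHIP peaked at a mean of 2.28 TPM, under the 5 TPM asked of these genes, so log2(TPM + 1) understates its fall beside theirs. From 34 to 72 h mean TPM went from 2.28 to 0.0556 for HHIP and from 7.89 to 1.53 for FGD5. For TAP2 it went from 17.4 to 5.98 and for CLDN5 from 5.26 to 1.11. In means of 2 libraries, TNRC6C had 8.84 TPM before WNT3A and then 17.9 (42 h), 20.1 (50 h) and 15.6 (72 h), and H1F0 had 32.4 TPM at 50 h and 103 at 72 h. These points share their libraries, and the ranking is a description.

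Neural crest markers (SOX10, FOXD3, TFAP2A and SNAI2; 3 of 4 at 1 TPM or more) summed to 7.08 to 8.75 TPM at 34 h and 8.16 to 9.26 TPM at 72 h, a sum in which FOXD3 fell, from 4.65 and 4.48 TPM to 0 in both 72 h libraries (-2.48, limma adjusted p = 0.000239), and SNAI2 rose, from 0.339 and 0.360 to 6.99 and 5.19 TPM (2.38, limma adjusted p = 0.000315). FOXD3 reached 1 TPM only at 34 h, so its fall was fixed by the filter. SNAI2 was under 1 TPM at 34 h, so the filter favoured its rise. Definitive endoderm markers (SOX17, CXCR4, GSC and EOMES; 2 of 4) summed to 1.19 to 2.15 TPM at 34 h and 6.41 to 7.38 TPM at 72 h, of which CXCR4 alone held 1.13 and 1.73 TPM (34 h) and 6.33 and 7.21 TPM (72 h). EOMES was at 0 in both 72 h libraries, GSC stayed under 1 TPM and SOX17 was at 0 in all 8 libraries. The endoderm sum was already 6.86 to 7.35 TPM at 42 h and was 2.97 to 3.23 TPM at 50 h. At 42 h CXCR4 was at 5.71 and 5.30 TPM and EOMES at 1.33 and 1.21 TPM. Paraxial mesoderm markers (TBX6, MSGN1, MESP1 and MEOX1; 1 of 4) summed to 0.508 to 1.03 TPM at 34 h and 1.53 to 2.00 TPM at 72 h, with MSGN1 at 0 in all. Their part in the members' changes was not tested.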

How the data were processed

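Poly(A) RNA of 8 libraries was examined, 2 at each of 34, 42, 50 and 72 h. The authors deposited TPM values (scaled to a sum of 1000000 per library) for 37951 Ensembl gene rows. Salmon 1.9.0 and GRCh38 are listed in the submitters' processing notes, with no annotation given in the sources used here. Rows of a symbol were summed to 35940 symbols. The 14908 genes that reached 1 TPM in 2 or more libraries were fitted as log2(TPM + 1) with limma 3.58.1 in R 4.3.3, with 1 mean per time point, all 8 libraries and a variance trend, and calls were made at a Benjamini-Hochberg adjusted p under 0.05. The fit was tested on simulated data. Read depth is unknown, so no counting interval is given, and p-values measure the spread between 2 libraries per time point.

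Named genes were the 9 members, genes of the pathway lists, and the 3 nearest genes by course. Some list genes are not reported here by name. Members and lists were chosen with earlier results of these data known, and the alternatives for list genes were added after seeing the data. The alternatives were a pseudocount of 0.1, no filter, TMM rescaling, quantile normalization, compared time points alone, a replicate block, a variance without trend, unsummed Ensembl rows and leaving out each library. The labels name the replicate number as the batch, which pairs the libraries. Deviations from the time point means correlated between same-numbered libraries at -0.104 to 0.195 over pairs of time points. Gene positions are from GENCODE 29 and promoters from RefSeq, GRCh38.p14.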

Additional observations from a re-analysis of the deposited data

How the results depend on the processing

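With 2 libraries per time point, single calls often rested on 1 library. Of 9 calls of members, each under up to 16 alternatives, 118 cases kept the call, 24 lost it and 0 changed direction, and both BOC calls were kept in all. Among the 9 is the 72 h fall of HHIP, fixed by the filter, which gave 12 of the kept cases and 2 of the lost ones. The count of members changed at 42 h against 34 h (1) was 0 with no filter, with the time points alone and with a variance without trend, and 0 to 1 with 1 library left out. At 50 h against 34 h (1) it was 0 with no filter or the time points alone, and 0 to 2 with 1 library left out. With the replicate block it was 2, both raised. With a variance without trend it was also 2, 1 raised and 1 lowered, the lowered being HHIP, whose fall was fixed by the filter. At 72 h against 34 h (6) it was 5 with no filter, with the time points alone or with a variance without trend, and 1 to 6 with 1 library left out. It was 1, BOC, without replicate 1 of 72 h. The block changed no other count of members. HHIP had no value without either 34 h library.

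The count of all genes called with the time points alone was 171 at 42 h and 431 at 50 h against 34 h, from 384 and 933, and 367 from 1093 for 72 h against 50 h. Between 42 and 50 h (14 genes) it was 8 with no filter, 0 with the time points alone, 7 with the replicate block, 27 with a variance without trend and 4 with Ensembl rows apart. With 1 library left out the counts were 160 to 385 at 42 h, 412 to 809 at 50 h and 1840 to 3661 at 72 h against 34 h, 1 to 8 between 42 and 50 h and 319 to 929 between 50 and 72 h.

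Direction changed only in differences that were not called, and the cause was not tested. With 1 library left out, the difference from 34 h at 42 h ranged from -0.027 to 0.22 for SMO, -0.56 to 0.28 for GLI1, -0.045 to 0.21 for GAS1 and -0.34 to 0.034 for BOC. At 50 h it ranged from -0.55 to 0.29 for GLI1 and -0.14 to 0.61 for GLI2, and at 72 h from -0.75 to 0.092 for GLI1 and -0.015 to 0.55 for GLI2. Between 42 and 50 h the range was -0.40 to 0.15 for PTCH1, -0.0069 to 0.20 for SMO, -0.13 to 0.16 for GLI1, -0.45 to 0.30 for GLI2, -0.10 to 0.29 for GLI3 and -0.32 to 0.16 for HHIP, and GLI1 was -0.023 with TMM rescaling and -0.026 with quantile normalization. Between 50 and 72 h it was -0.34 to 0.21 for PTCH1, -0.45 to 0.047 for GLI1 and -0.34 to 0.40 for GLI2. Of the 18 list genes called at 72 h against 34 h, 18 kept the call with the replicate block or TMM rescaling, 16 with no filter, and 11 of the 15 that had a value without replicate 1 of 72 h. Of the calls between 42 and 50 h, 64.3% were upward, 47.4% with TMM rescaling and 45.0% with quantile normalization. For 72 h against 34 h the upward share was 53.1%, 44.8% with TMM rescaling and 47.7% with quantile normalization, and for 50 h against 34 h it was 56.3%, 48.1% and 49.6%.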
